A study of Sus scrofa with 4 samples.

Results

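Cartilage matrix that is not collagen was followed through 8 structural genes, ACAN, HAPLN1, MATN1, MATN3, COMP, CHAD, EPYC and CNMD, together with SOX9, the transcription factor that switches many of them on. These 9 genes were found by symbol among the 29263 genes counted in pig lung libraries. They were picked as a group because an earlier reading of the same libraries had shown them to be mostly lower in GFP-HI cells. The GFP-HI and GFP-NEG values of these genes are therefore given as a description, without p-values, and their direction is not a finding. How many passed the test threshold is given below beside all tested genes, and nothing is read from it.

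The study sorted lung cells of pigs that all carried the LGR5-H2B-GFP knock-in, an allele that places a green fluorescent histone under control of LGR5, by fluorescence. GFP-HI is the bright fraction and GFP-NEG is the fraction without signal, each with 2 biological replicates. Both fractions therefore carried the reporter allele, and no library from pigs without it was analysed here. Adult and fetal lungs are covered by a single protocol text, and the labels give neither sex, zygosity nor the antibody gates of these 4 libraries. Of age they say nothing for a single library, while the name of the deposited comparison table, which holds the same counts, contains the words adult pig. Replicate numbers come from the sample titles, which do not say how many animals went into a library. The p-values rest on a spread between these samples that was largely pooled over genes. They give little weight to the spread of a single gene and cannot be read as spread between animals.

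Cartilage in the lung supports the walls of the trachea and bronchi, and it is built by chondrocytes. Its matrix holds a network of type II, IX and XI collagen fibrils that resists tension, and between them aggrecan, a very large proteoglycan that binds water and resists compression. Link protein ties aggrecan to hyaluronan, and matrilins, COMP and chondroadherin connect fibrils, proteoglycans and cells. SOX9, acting with SOX5 and SOX6, drives the genes of this matrix, but it is also made in other cells, including epithelium of the developing airway. Several of these genes have close relatives that serve in tendon, vessel wall or general connective tissue.

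The GFP-HI libraries held 24200550 and 24689986 counts and the GFP-NEG libraries 6292253 and 7045652 counts, so that a single read was worth 0.0453 and 0.0496 CPM (counts scaled to a common library size by the TMM method) in GFP-HI and 0.155 and 0.110 CPM in GFP-NEG. LGR5 transcripts, which check the sort, were at 146 and 152 CPM in GFP-HI and at 1.55 and 0.767 CPM in GFP-NEG (log2 fold change 7.03, SE 0.72, adjusted p = 3.7e-19, edgeR). The GFP-NEG libraries differed from each other in their makeup. Summed over the chondrocyte marker list, which includes 4 of the genes described here (ACAN, HAPLN1, MATN1 and CNMD), GFP-NEG replicate 1 held 7486 CPM and GFP-NEG replicate 2 held 989 CPM, against 401 and 291 CPM in the GFP-HI libraries. COL2A1, the chain of type II collagen and the defining transcript of chondrocytes, was at 5313 and 681 CPM in GFP-NEG and at 210.5 and 83.9 CPM in GFP-HI. In bulk samples such as these, fewer cells of a type and less RNA per cell cannot be told apart.

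SOX9 was detected at a low level in all 4 libraries. It had 2.94 CPM in GFP-HI replicate 1, 3.87 CPM in GFP-HI replicate 2, 20.5 CPM in GFP-NEG replicate 1 and 6.03 CPM in GFP-NEG replicate 2, from 65, 78, 132 and 55 counts. The GFP-HI libraries were both below the GFP-NEG libraries, and the groups did not overlap. SOX9 was 6.96-fold lower in GFP-HI in replicate 1 but 1.56-fold lower in replicate 2, and its log2 fold change from the fit over all libraries was -1.95 with an SE of 0.75. The 1.56-fold gap was the narrowest of replicate 2 among the 7 fitted genes that were lower in both replicates. Markers of lung epithelium, another possible source of SOX9, summed to 395 and 346 CPM in GFP-HI and to 1282 and 976 CPM in GFP-NEG. Of these sums, ID2 alone made 232 and 120 CPM in GFP-HI and 796 and 829 CPM in GFP-NEG, so they largely follow that gene. SFTPC was lower in GFP-HI in replicate 1 (81.9 against 301 CPM) and higher in replicate 2 (170 against 62.0 CPM). The part of epithelial cells in the SOX9 values was not tested.

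ACAN encodes aggrecan, the proteoglycan that gives cartilage its stiffness under load. Its level was 16.6 and 7.34 CPM in GFP-HI and 171 and 41.7 CPM in GFP-NEG, replicate 1 first in each case. Every GFP-HI library was below every GFP-NEG library. The gene was 10.3-fold lower in GFP-HI in replicate 1 and 5.68-fold lower in replicate 2, with a log2 fold change of -3.15 (SE 0.56).

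HAPLN1 encodes the link protein that locks aggrecan onto hyaluronan, and it departed from the rest. It was at 97.9 CPM in GFP-HI replicate 1 (2161 counts), 158 CPM in GFP-HI replicate 2 (3194 counts), 227 CPM in GFP-NEG replicate 1 (1459 counts) and 28.7 CPM in GFP-NEG replicate 2 (262 counts). The groups overlapped, with the GFP-NEG libraries at the top and at the bottom of the range and the GFP-HI libraries between them. GFP-HI was 2.31-fold lower than GFP-NEG in replicate 1 and 5.51-fold higher in replicate 2, and the mean was 128 CPM in both groups (SD 42.7 in GFP-HI and 139.9 in GFP-NEG, n = 2 each). Its log2 fold change was 0.01 with an SE of 0.57. A change of direction between replicates was seen in 20% of all tested genes.

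The matrilins are adaptor proteins that join collagen fibrils to proteoglycans, and MATN1 is the form typical of airway and other mature cartilage. MATN1 was at 18.2 and 17.4 CPM in GFP-HI and at 717 and 70.5 CPM in GFP-NEG. The GFP-HI libraries were nearly equal, while the GFP-NEG libraries differed by 10.2-fold and both lay higher. MATN1 was 39.4-fold lower in GFP-HI in replicate 1 and 4.06-fold lower in replicate 2 (log2 fold change -4.47, SE 0.71). MATN3, found mainly in growing cartilage, was at 12.9 and 3.42 CPM in GFP-HI and at 350.1 and 28.8 CPM in GFP-NEG. Here too the groups did not overlap, and the GFP-NEG libraries were 12.1-fold apart. MATN3 was 27.2-fold lower in GFP-HI in replicate 1 and 8.43-fold lower in replicate 2, which was the widest gap of replicate 2 among those 7 genes, and its log2 fold change was -4.54 (SE 0.64).

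COMP, a pentameric thrombospondin that binds collagen in cartilage and tendon, was at 24.2 and 8.87 CPM in GFP-HI and at 402 and 41.5 CPM in GFP-NEG. Both GFP-NEG values were above both GFP-HI values. COMP was 16.6-fold lower in GFP-HI in replicate 1 and 4.68-fold lower in replicate 2 (log2 fold change -3.74, SE 0.63). CHAD encodes chondroadherin, a leucine-rich repeat protein that chondrocytes attach to. It was at 34.3 and 13.7 CPM in GFP-HI and at 311 and 45.3 CPM in GFP-NEG, and the groups again did not overlap. CHAD was 9.05-fold lower in GFP-HI in replicate 1 and 3.30-fold lower in replicate 2 (log2 fold change -2.89, SE 0.59).

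EPYC encodes epiphycan, a small leucine-rich proteoglycan of the growth plate, and it was at the limit of detection. GFP-HI held 0 and 2 counts and GFP-NEG 8 and 1 counts, or 0, 0.0991, 1.24 and 0.110 CPM. In replicate 1, the GFP-NEG value was 9.1-fold above the level of 3 counts, the floor, in the GFP-HI library. That fold rests on 8 counts and is not a lower bound. No fold is given for replicate 2, where both libraries were under the floor, and EPYC did not pass the filter for testing.

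CNMD encodes chondromodulin, a membrane protein whose secreted part keeps vessels out of cartilage. It had 6 and 33 counts in GFP-HI against 125 and 48 in GFP-NEG, or 0.272, 1.64, 19.4 and 5.26 CPM. The GFP-HI libraries were below the GFP-NEG libraries, and this was the gene with the largest spread between GFP-HI replicates, with replicate 2 above replicate 1. CNMD was 71.4-fold lower in GFP-HI in replicate 1 and 3.22-fold lower in replicate 2 (log2 fold change -3.68, SE 0.88), and the first of these folds rests on 6 counts.

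**Figure D1:**
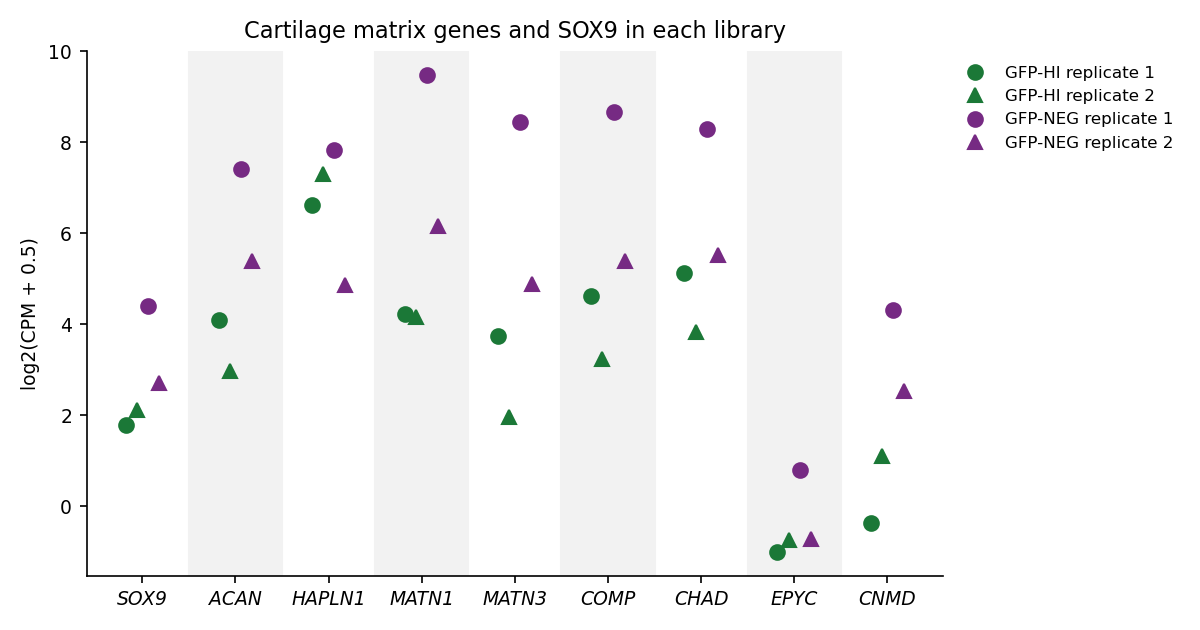
Level of each gene in each library as log2(CPM + 0.5), with GFP-HI in green and GFP-NEG in purple, circles for replicate 1 and triangles for replicate 2, and no error bars because every point is a single library. Apart from HAPLN1, whose GFP-HI points lie between its GFP-NEG points, the GFP-HI points of each gene lie below its GFP-NEG points, with nearly equal replicate 2 points for EPYC, and GFP-NEG replicate 1 is the top point of all 9 genes.

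Counted together, 8 of the 9 genes were lower in GFP-HI within both replicates, a property shared by 46.5% of the 19682 genes tested, and 8 had groups that did not overlap with GFP-HI lower, against 42% of tested genes. No gene of the 9 was higher in every GFP-HI library, as 27.7% of tested genes were. Without EPYC, whose replicate 2 values rest on 3 reads, both counts were 7. Of the 8 genes fitted, 7 were past the threshold of edgeR in the lower direction, where 27.6% of all tested genes were, and 0 in the higher direction (0 at an unadjusted p under 0.05 and 0 by DESeq2), where 8.35% were, and 36% of all tested genes were past it in either direction. Nothing is read from these counts, because the same contrast chose the genes. The median log2 fold change of the 8 was -3.42, beside -0.25 over all tested genes. The values nearest to 0 among the genes that were lower were those of SOX9 (-1.95) and CHAD (-2.89), and the gene outside that pattern was HAPLN1 (0.01).

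The replicates differed more than the direction of these values shows. For the 7 fitted genes other than HAPLN1, GFP-HI was lower by 6.96-fold to 71.4-fold in replicate 1 (median 16.6-fold) and by 1.56-fold to 8.43-fold in replicate 2 (median 4.06-fold). Each of the 7 had its larger gap in replicate 1. The difference lay mainly in the GFP-NEG libraries, where replicate 1 exceeded replicate 2 by 3.40-fold to 12.1-fold (median 6.86-fold), whereas GFP-HI replicate 1 ranged from 0.166 to 3.76 times GFP-HI replicate 2. Summed over the 9 genes, GFP-NEG replicate 1 held 2218 CPM and GFP-NEG replicate 2 held 268 CPM, close to the 207 and 215 CPM of the GFP-HI libraries, of which HAPLN1 alone made 97.9 and 158 CPM.

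**Figure D2:**
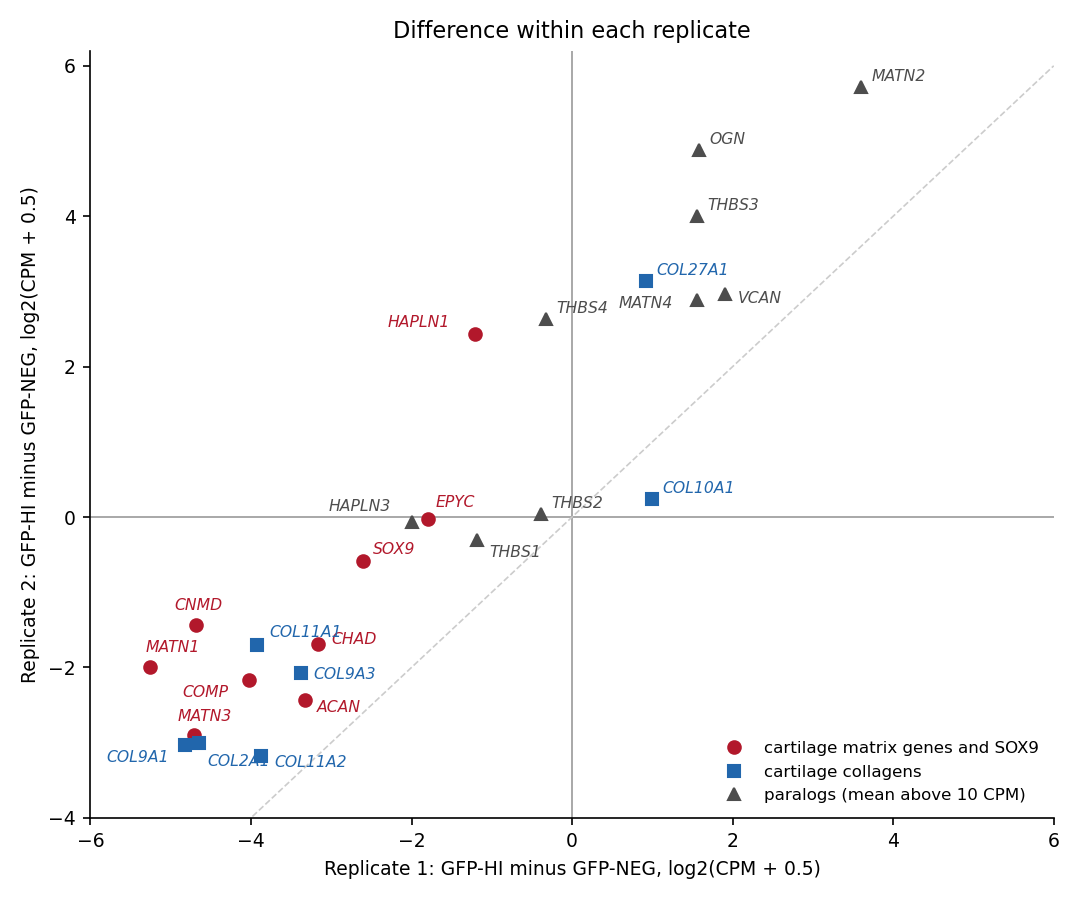
Difference between GFP-HI and GFP-NEG in log2(CPM + 0.5) within replicate 1 (horizontal) and within replicate 2 (vertical) for the 9 genes (red circles), the cartilage collagens (blue squares) and paralogs with a mean above 10 CPM (grey triangles), with a dashed line where the replicates are equal. The red points other than HAPLN1 and EPYC lie in the lower left, between -5.26 for MATN1 and -2.61 for SOX9 in replicate 1, and above the dashed line.

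Leaving out GFP-NEG replicate 1 brought the log2 fold changes of all 7 nearer to 0. MATN1 went from -4.47 to -1.94, MATN3 from -4.54 to -1.77, COMP from -3.74 to -1.28 and CNMD from -3.68 to -2.41. ACAN went from -3.15 to -1.75, CHAD from -2.89 to -0.86 and SOX9 from -1.95 to -0.77. The sign of these 7 values was kept in each of the 13 alternative analyses run. For each of the 7, both GFP-HI values were below both GFP-NEG values, so leaving out a library could hardly change the sign. The same contrast also chose the genes, and nothing is read from the kept sign. HAPLN1 moved the other way, to 2.21 when GFP-NEG replicate 1 was left out and to -0.86 when GFP-NEG replicate 2 was. Its direction thus differed with the GFP-NEG library used, and it also changed sign without GFP-HI replicate 2 (-0.35) and with library size alone (-0.30). With 1 library left in a group, the fit assumes that this library varies like the other group.

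**Figure D3:**
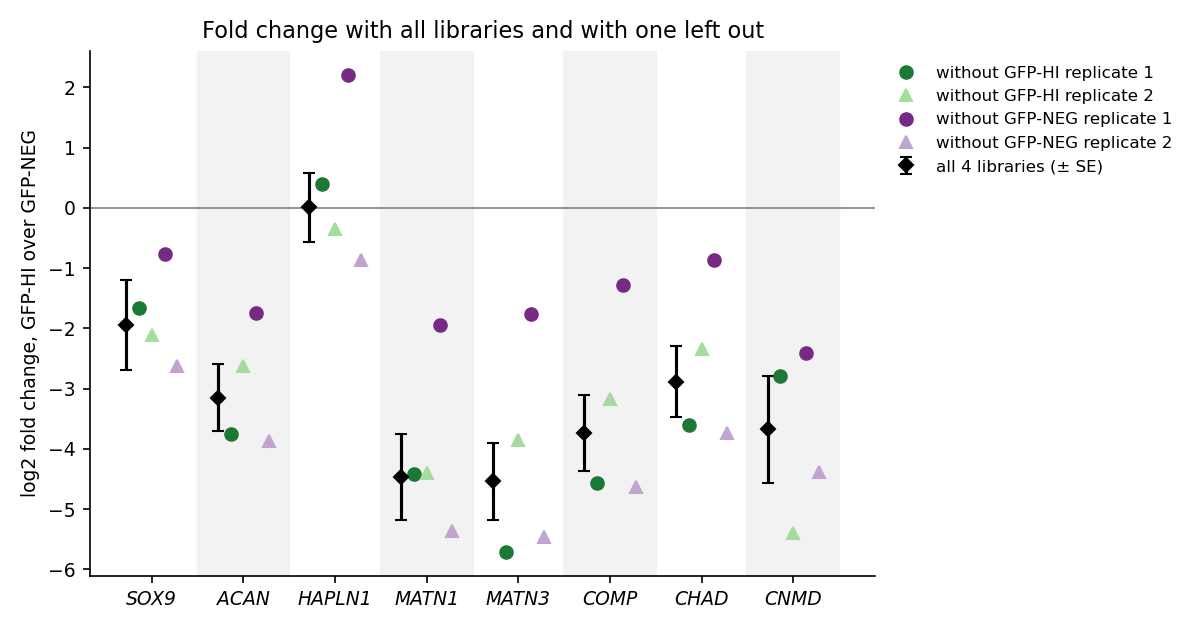
log2 fold change of the 8 fitted genes (GFP-HI over GFP-NEG) with all 4 libraries (black diamonds, bars show ± SE) and with each library left out in turn (coloured points). The dark purple points, without GFP-NEG replicate 1, are the nearest to 0 for the 7 genes that were lower, and at 2.21 the farthest from 0 for HAPLN1.

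Other cell types also differed between the fractions and between the GFP-NEG replicates, and their part in the values above was not tested. PTPRC, the pan-leukocyte surface protein CD45, was at 45.9 and 121 CPM in GFP-HI and at 687 and 1214 CPM in GFP-NEG. Of 10 tested immune markers, 8 fell (80%, beside 27.6% of all tested genes). Summed immune markers were lower in GFP-NEG replicate 1 (1589 CPM) than in GFP-NEG replicate 2 (2366 CPM), the opposite order to the cartilage genes. The Schwann cell and mesothelial sums had the immune order. The fibroblast, endothelial, smooth muscle and epithelial sums were higher in GFP-NEG replicate 1, like the cartilage genes, so that order was not particular to cartilage. PDGFRA, a receptor of lung fibroblasts, was at 822 and 563 CPM in GFP-HI and at 97.2 and 22.7 CPM in GFP-NEG, and 7 of 10 fibroblast markers rose in GFP-HI (8.35% of all tested genes did). All 10 markers summed to 87444 and 82323 CPM in GFP-HI against 26332 and 9428 CPM in GFP-NEG. COL1A1, COL1A2 and COL3A1 made the largest part of these sums. They were not called by edgeR (adjusted p = 0.36, 0.46 and 0.29) but were called by DESeq2. COL1A2 alone was at 30096.5 and 23559 CPM in GFP-HI and at 12185.5 and 3326 CPM in GFP-NEG. Of the endothelial markers, 7 of 8 tested fell (87.5%, beside 27.6%), with sums of 189 and 189.7 CPM in GFP-HI and 1369 and 571 CPM in GFP-NEG. Smooth muscle markers summed to 2371 and 2796 CPM in GFP-HI and to 2768 and 409 CPM in GFP-NEG. By the test, 2 of 9 were higher and 4 lower (22.2% and 44.4%, beside 8.35% and 27.6%). EPCAM, the epithelial surface marker, was low throughout, at 2.04 and 1.64 CPM in GFP-HI and 5.59 and 3.84 CPM in GFP-NEG (log2 fold change -1.35, adjusted p = 0.34, edgeR), and 3 of 11 tested epithelial markers fell (27.3%, about the 27.6% of all tested genes). Of the Schwann cell markers, 2 were tested and 0 called by edgeR (0 at an unadjusted p under 0.05, 1 lower by DESeq2), and the mesothelial list had no gene that passed the filter, with a summed level of 0 and 0.0991 CPM in GFP-HI and 0.311 and 3.18 CPM in GFP-NEG. Of the 7 fibroblast calls, 2 were kept without GFP-NEG replicate 2 and 4 when GFP-HI replicate 2 was left out. Of the 8 immune calls at least 6 were kept whichever library was left out. Of the 7 endothelial calls, 4 were kept without GFP-HI replicate 1, 3 without GFP-NEG replicate 1, and 2 when GFP-HI replicate 2 was left out. Of the 6 smooth muscle calls, 1 to 4 were kept with a library left out, and of the 3 epithelial calls 0 (edgeR, 1 at an unadjusted p under 0.05, without GFP-HI replicate 2) to 2.

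To see which cartilage genes kept their proportion to the main cartilage collagen, each gene was expressed per 100 counts of COL2A1 in the same library, a ratio that does not depend on library scaling. MATN3 kept its proportion, with 6.11 in GFP-HI and 6.59 in GFP-NEG in replicate 1, and 4.08 and 4.23 in replicate 2. Its GFP-HI ratio was thus 0.928 and 0.963 times the GFP-NEG ratio. COL9A1, a chain of the type IX collagen that coats type II fibrils, did likewise at 0.868 and 0.950 times. The other cartilage collagens compared did not. COL9A3 was 2.37 and 1.83 times and COL11A1 1.63 and 2.45 times as high relative to COL2A1 in GFP-HI. COL11A2, at 1.69 and 0.809 times, went in opposite directions in the replicates. COMP was 1.52 and 1.73 times, ACAN 2.45 and 1.43 times and CHAD 2.79 and 2.46 times as high relative to COL2A1 in GFP-HI.

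SOX9 stood at 1.40 per 100 COL2A1 counts in GFP-HI and 0.386 in GFP-NEG in replicate 1, and at 4.61 and 0.885 in replicate 2, which is 3.63 and 5.21 times as high in GFP-HI. HAPLN1 had the widest departure. It stood at 46.5 in GFP-HI and 4.26 in GFP-NEG in replicate 1, and at 189 and 4.22 in replicate 2, or 10.9 and 44.7 times as high in GFP-HI. The GFP-NEG replicates thus had nearly the same proportion of HAPLN1 to COL2A1, and the GFP-HI replicates did not. MATN1 at 0.641 and 2.00 times and CNMD at 0.354 and 2.52 times went in opposite directions in the replicates. These ratios show unequal change between genes of a library, not which gene of a pair moved, and no test was made of them.

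**Figure D4:**
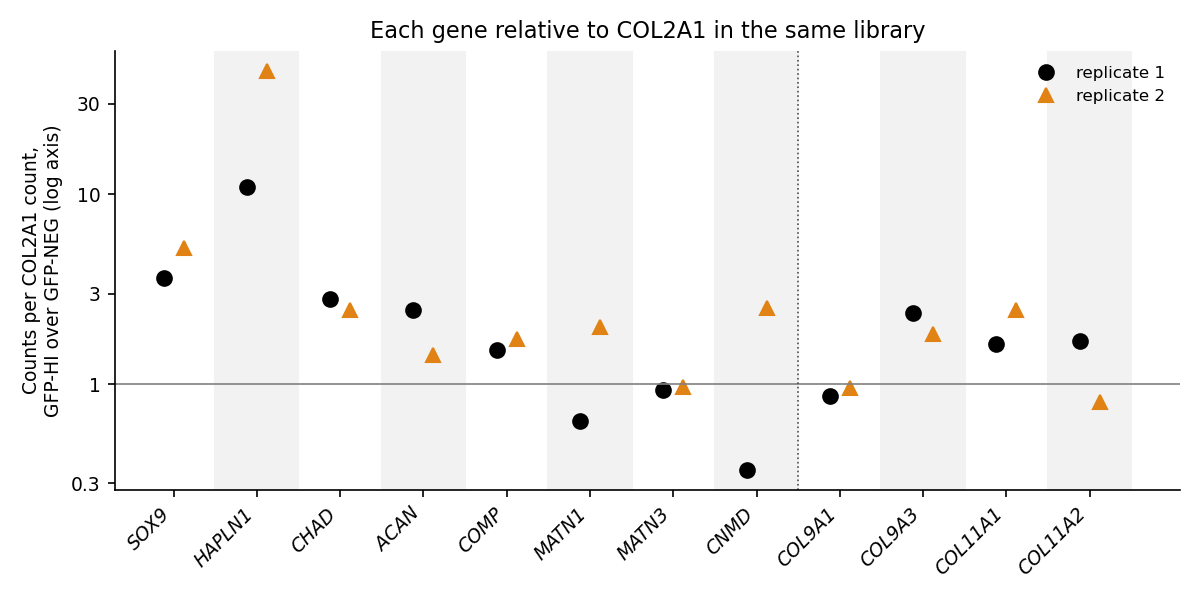
Counts per COL2A1 count in GFP-HI divided by the same in GFP-NEG, on a log axis, within replicate 1 (black circles) and replicate 2 (orange triangles), for the genes described and, right of the dotted line, for other cartilage collagens; EPYC is left out because its counts are too low. MATN3 and COL9A1 lie near the line at 1, and HAPLN1 lies at 10.9 and 44.7. COL9A3 and COL11A1 lie above the line in both replicates, and COL11A2 lies on both sides of it.

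The genes whose profiles over the 4 libraries were nearest to each cartilage gene were found by the distance between log2(CPM + 0.5) values centred on each gene's own mean. With 4 libraries these distances describe the libraries only, and many genes lie close. Nearest to MATN3 were MMP8 (distance 0.30), COL2A1 (0.54) and ISG20 (0.57). The nearest to CHAD were S100A8 (0.27), CRISPLD1 (0.30) and COL9A3 (0.32), and to COMP they were ISG20 (0.34), CTHRC1 (0.47) and COL9A3 (0.51). MATN1 was nearest to MIA (0.57), CAPN6 (0.60) and CTHRC1 (0.66). ACAN was nearest to EXTL1 (0.41), CLDN5 (0.42) and ITGBL1 (0.45), and CNMD to S1PR5 (0.26), CCL21 (0.56) and PLIN5 (0.73). SOX9 was nearest to GDF5 (0.22), RYR3 (0.22) and TAL1 (0.29), and HAPLN1 to DDO (0.24), VEGFD (0.24) and MYCBPAP (0.36). So known cartilage genes (COL2A1, COL9A3, MIA) stood among the nearest of MATN3, CHAD, COMP and MATN1, beside genes made by leukocytes such as S100A8 and MMP8. Among the genes described, ACAN and CHAD were the closest pair (0.70), followed by CHAD with COMP (0.76) and COMP with MATN3 (0.79). HAPLN1 was the most distant from the others, from 2.40 for SOX9 to 4.78 for MATN3.

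The collagens of cartilage, a list chosen with earlier results of these libraries known, fell in GFP-HI in 5 of 7 tested members and rose in 1. These were 71.4% and 14.3%, beside 27.6% and 8.35% of all tested genes. COL9A1 was at 15.4 and 9.42 CPM in GFP-HI and at 449 and 80.5 CPM in GFP-NEG (log2 fold change -4.41, SE 0.67, adjusted p = 5.8e-09, edgeR). COL2A1 had the same order of libraries (-4.35, SE 1.08, adjusted p = 0.00034), and so had the type XI chains COL11A2 (-3.81, adjusted p = 4.4e-08) and COL11A1 (-3.43, adjusted p = 2.1e-06) and the type IX chain COL9A3 (-3.17, adjusted p = 9.1e-07). COL27A1, a fibrillar collagen that is also made outside cartilage, rose by 1.62 (SE 0.54, adjusted p = 0.010), with 111 and 101 CPM in GFP-HI and 58.4 and 11.07 CPM in GFP-NEG. COL10A1, the collagen of hypertrophic chondrocytes, was low, at 3.90 and 2.43 CPM in GFP-HI and 1.71 and 1.97 CPM in GFP-NEG (0.78, SE 1.13, adjusted p = 0.63). The list's median was -3.43, beside -0.25 over all tested genes. Of these 6 calls, 4 were kept when GFP-NEG replicate 1 was left out (COL9A3 and COL11A1 were lost), 3 without GFP-HI replicate 2 (COL2A1, COL9A3 and COL27A1 were lost), and 5 each without GFP-HI replicate 1 and without GFP-NEG replicate 2 (COL27A1 was lost). The COL27A1 call was also lost with DESeq2.

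Other secreted products of cartilage were split between genes that fell and genes that did not. Of 15 tested, 9 fell (60%, beside 27.6% of all tested genes) and 0 rose by edgeR (0 higher at an unadjusted p under 0.05). By DESeq2, 1 was higher, MGP. The median log2 fold change was -1.90. MGP was at 13814 and 16481 CPM in GFP-HI and 7175 and 875 CPM in GFP-NEG (1.91, adjusted p = 0.35, edgeR). FMOD was at 1351 and 1293 CPM against 1046 and 137 CPM (1.16, adjusted p = 0.3). With MGP the largest part, the list summed to 15301 and 17874 CPM in GFP-HI and 9492 and 1144 CPM in GFP-NEG. MIA, a small secreted protein of chondrocytes, was at 2.67 and 2.83 CPM in GFP-HI and at 78.7 and 10.1 CPM in GFP-NEG (log2 fold change -4.01, SE 0.61, adjusted p = 9.5e-09). CYTL1, a cytokine-like protein of chondrocytes, was at 22.7 and 22.6 CPM in GFP-HI and 675 and 40.8 CPM in GFP-NEG (-3.98, SE 0.69, adjusted p = 4.6e-07). Like MATN1, both had nearly equal GFP-HI libraries and unequal GFP-NEG libraries. CILP2, a cartilage intermediate layer protein, fell by 3.19 (SE 0.57, adjusted p = 1.4e-06), although its groups overlapped at 9.29 and 1.78 CPM against 92.2 and 9.10 CPM. UCMA, a protein of the upper growth plate, had 3 and 0 counts in GFP-HI against 24 and 8 in GFP-NEG (adjusted p = 0.0037). Without GFP-NEG replicate 1, 0 of the 9 calls were kept by edgeR (0 at an unadjusted p under 0.05), UCMA not passing the filter there. Without either GFP-HI library 3 were kept, and without GFP-NEG replicate 2 there were 8.

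Relatives of the cartilage genes did not share a direction. Of 14 tested paralogs, 5 rose in GFP-HI and 2 fell, where 8.35% of all tested genes rose and 27.6% fell. Their median log2 fold change was 0.88. MATN2, the matrilin of general connective tissue, was at 2918 and 3004 CPM in GFP-HI and at 241 and 56.6 CPM in GFP-NEG (log2 fold change 4.32, SE 1.07, adjusted p = 0.00035, edgeR). MATN4, a matrilin with a wide tissue range, was at 391 and 169 CPM in GFP-HI and at 132 and 22.4 CPM in GFP-NEG (1.86, SE 0.62, adjusted p = 0.011). All 4 matrilins had groups that did not overlap, MATN1 and MATN3 with GFP-HI lower and MATN2 and MATN4 with GFP-HI higher.

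VCAN, which encodes versican, the hyaluronan-binding proteoglycan of loose connective tissue and the relative of aggrecan, was at 803 and 741 CPM in GFP-HI and at 214 and 94.6 CPM in GFP-NEG (2.32, SE 0.76, adjusted p = 0.0080, edgeR). BCAN, the brain lectican, fell from a low level, with 3 and 0 counts in GFP-HI against 12 and 22 in GFP-NEG (adjusted p = 0.0041). HAPLN3, a link protein relative, fell by 1.5 (SE 0.52, adjusted p = 0.014), but its groups overlapped, with 25.9 and 17.4 CPM in GFP-HI and 104.96 and 18.2 CPM in GFP-NEG, and it changed sign without GFP-NEG replicate 1. The HAPLN3 call was also lost with DESeq2. HAPLN4 was low in all libraries, between 1.40 and 3.32 CPM (0.40, adjusted p = 0.82).

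Within the thrombospondins, to which COMP belongs, THBS3 rose by 2.33 (SE 0.57, adjusted p = 0.00029, edgeR), with 151 and 149.9 CPM in GFP-HI and 51.2 and 8.88 CPM in GFP-NEG. THBS1 (-0.99, adjusted p = 0.34), THBS2 (-0.28, adjusted p = 0.74) and THBS4 (0.47, adjusted p = 0.53) did not pass the test, and their groups overlapped. OGN, which encodes osteoglycin and is the nearest relative of EPYC together with OPTC, was at 1016 and 1747 CPM in GFP-HI and at 340.2 and 58.6 CPM in GFP-NEG (2.79, SE 0.86, adjusted p = 0.0048). CHADL, the relative of CHAD, was at 2.17 and 1.49 CPM in GFP-HI and at 6.99 and 2.85 CPM in GFP-NEG (-1.41, SE 1.05, adjusted p = 0.31). The SOX9 relatives SOX8 (1.60, SE 0.99, adjusted p = 0.21) and SOX10 (1.29, SE 0.75, adjusted p = 0.18) did not pass the test. NCAN, HAPLN2, OPTC and TNMD did not pass the filter on low counts. Of the 7 calls among paralogs, 5 were kept without GFP-NEG replicate 1 (BCAN and HAPLN3 were lost), 4 without GFP-HI replicate 1, 3 without GFP-HI replicate 2 and 2 without GFP-NEG replicate 2, where MATN2 and HAPLN3 stayed. The difference between a cartilage gene and its paralog was not itself tested.

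**Figure D5:**
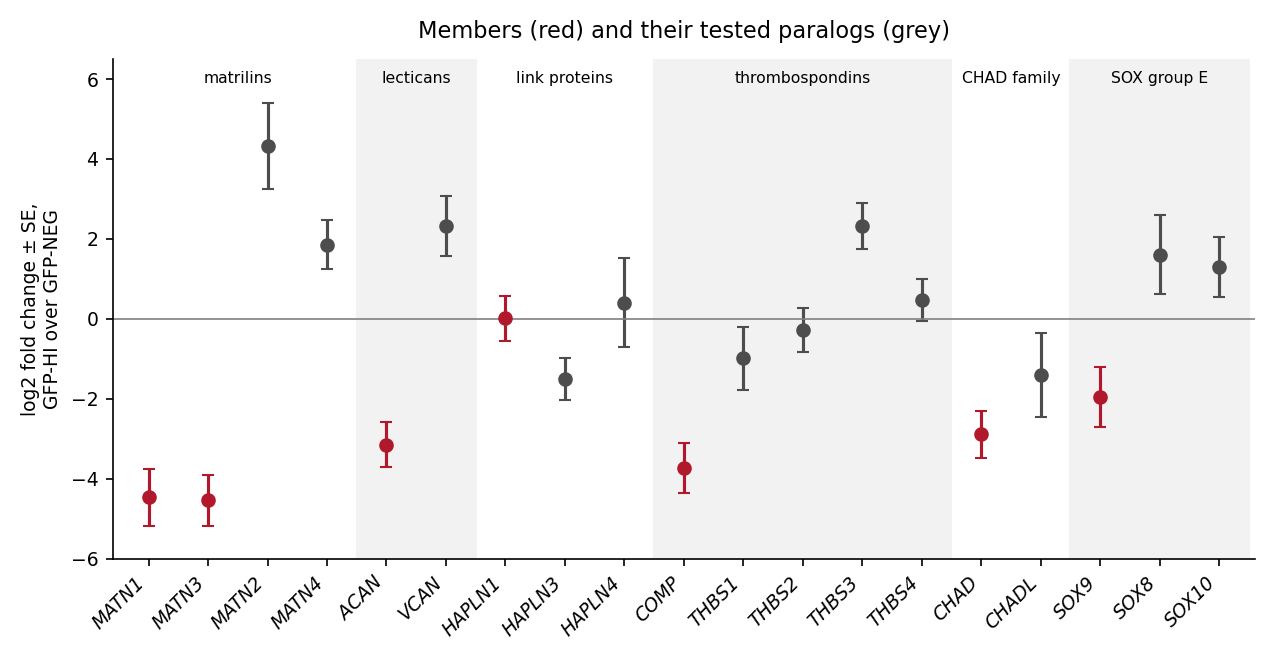
log2 fold change (GFP-HI over GFP-NEG) ± SE from the edgeR fit over 4 libraries for the genes described (red) and their tested paralogs (dark grey), grouped by protein family; BCAN, whose GFP-HI libraries held 3 and 0 counts, and OGN, whose cartilage relative EPYC was not fitted, are not drawn. MATN1 and MATN3 lie at -4.47 and -4.54, MATN2 and MATN4 at 4.32 and 1.86, and ACAN and VCAN at -3.15 and 2.32.

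Transcription factors that act with or beside SOX9 in cartilage showed 4 genes that fell and 1 that rose among 13 tested, or 30.8% and 7.69%, close to the 27.6% and 8.35% of all tested genes. SOX6, a partner of SOX9, was at 3.17 and 4.81 CPM in GFP-HI and at 18.9 and 9.21 CPM in GFP-NEG (log2 fold change -1.81, SE 0.72, adjusted p = 0.035, edgeR). SOX5, the other partner, did not pass the test and its groups overlapped (-0.75, SE 0.64, adjusted p = 0.38). RUNX2 and RUNX3, which act in maturing chondrocytes and, for RUNX3, in lymphocytes, fell by 3.16 (adjusted p = 9.4e-05) and 3.42 (adjusted p = 5.2e-06). MEF2C, also made in muscle, vessels and B cells, fell by 2.39 (adjusted p = 0.00012). Unlike the cartilage matrix genes, RUNX2 and RUNX3 were higher in GFP-NEG replicate 2 (28.8 and 35.4 CPM) than in GFP-NEG replicate 1 (12.3 and 20.3 CPM), the order seen for PTPRC. PRRX1, a factor of limb and lung mesenchyme, rose by 2.40 (SE 0.55, adjusted p = 0.00014). Without any of the 4 libraries in turn, 4 of the 5 calls were kept; SOX6 was the call lost without GFP-NEG replicate 1 or either GFP-HI library, and PRRX1 the call lost without GFP-NEG replicate 2.

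Genes of signalling pathways that act upstream of SOX9 rose more often than they fell, with 9 higher and 3 lower of 17 tested. These were 52.9% and 17.6%, beside 8.35% and 27.6% of all tested genes. The median log2 fold change of the 17 was 2.25, while SOX9 itself had -1.95. The list mixes ligands, receptors, antagonists and readouts, so its median does not measure signalling to SOX9. Fibroblast markers also rose, as given above, and their part in these values was not tested. BMP7 was at 60.4 and 27.3 CPM in GFP-HI and at 1.86 and 1.43 CPM in GFP-NEG (4.74, SE 0.66, adjusted p = 2.2e-10, edgeR), and BMP4 at 305 and 598 CPM and at 38.0 and 13.8 CPM (4.12, SE 0.72, adjusted p = 6.7e-07). Both are bone morphogenetic proteins, which induce SOX9 in early cartilage. GLI1 (3.81, SE 0.63, adjusted p = 1.4e-07) and PTCH1 (3.55, SE 0.62, adjusted p = 7.1e-07), readouts of Hedgehog signalling, rose too. The other genes that rose were FGF10 (3.41, adjusted p = 2.9e-07), the receptor gene BMPR1A (2.72, adjusted p = 3.2e-05), the BMP antagonist CHRD (2.61, adjusted p = 3e-04), TGFB3 (2.29, adjusted p = 0.0023) and TGFB2 (2.25, adjusted p = 0.00022). GREM1, also an antagonist of BMPs, fell by 2.72 (SE 0.66, adjusted p = 0.00024), and TGFB1 fell by 1.92 (SE 0.55, adjusted p = 0.0021). The receptor gene BMPR1B fell from a low level, with 3 and 6 counts in GFP-HI against 11 and 32 in GFP-NEG (adjusted p = 0.026). BMP antagonists, TGFB ligands and BMP receptors thus each held genes of both directions. Of the 12 calls, 10 were kept without GFP-HI replicate 1 and 10 without GFP-NEG replicate 1, then 8 without GFP-HI replicate 2 and 6 without GFP-NEG replicate 2.

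Genes that build or remove the chondroitin sulfate proteoglycans of cartilage were mixed. Of 26 tested genes of chondroitin sulfate synthesis, 3 rose and 3 fell (11.5% each, beside 8.35% and 27.6% of all tested genes). CHST11, which adds sulfate to chondroitin at the position typical of cartilage, was at 3.22 and 1.64 CPM in GFP-HI and at 32.4 and 47.9 CPM in GFP-NEG (log2 fold change -4.04, SE 0.63, adjusted p = 1.3e-08, edgeR). CHST15 fell by 3.53 (adjusted p = 1.5e-06) and XYLT1, which starts the sugar chain, fell by 2.22 (adjusted p = 0.0031). All 3 were higher in GFP-NEG replicate 2 than in GFP-NEG replicate 1, the reverse of ACAN. CHST14, which serves dermatan sulfate, rose by 2.46 (adjusted p = 0.0069), BPNT2, a phosphatase needed for sulfation, by 1.98 (adjusted p = 0.0012) and CHPF, which helps to lengthen the chain, by 1.39 (adjusted p = 0.027). The CHPF call was lost with library size alone, upper-quartile scaling, thinned GFP-HI libraries and DESeq2, and the CHST14 call with library size alone. Of these 6 calls, 6 were kept without GFP-NEG replicate 1, then 3 without GFP-HI replicate 1, 4 without GFP-HI replicate 2 and 2 without GFP-NEG replicate 2.

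Among 12 tested proteases and inhibitors of aggrecan turnover, 5 rose (41.7%, beside 8.35% of all tested genes) and 1 fell (8.33%, beside 27.6%). HTRA1, a secreted serine protease, rose by 2.71 (SE 0.64, adjusted p = 0.00018, edgeR), ADAMTS8 by 2.69 (SE 0.55, adjusted p = 2.5e-05), ADAMTS7, which cleaves COMP, by 1.80 (SE 0.54, adjusted p = 0.0035) and ADAMTS9 by 1.67 (SE 0.54, adjusted p = 0.0076). ADAMTS5 rose by 1.33 (SE 0.54, adjusted p = 0.043), near the threshold. Its call was lost with DESeq2, library size alone, upper-quartile scaling, the stricter filter and thinned GFP-HI libraries. ADAMTS4 was not called (-0.55, SE 0.75, adjusted p = 0.61). MMP3 fell, with 15 and 0 counts in GFP-HI against 41 and 11 in GFP-NEG (adjusted p = 0.027). DESeq2 called 2 of these genes higher and 0 lower. Of the 6 edgeR calls, 1 was kept without GFP-NEG replicate 2, then 2 without GFP-HI replicate 2, 3 without GFP-HI replicate 1 and 4 without GFP-NEG replicate 1.

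Genes of hypertrophic cartilage and bone gave 1 call in each direction among 8 tested (12.5% each, beside 8.35% higher and 27.6% lower of all tested genes). PTH1R, the parathyroid hormone receptor, rose by 1.71 (SE 0.55, adjusted p = 0.0074, edgeR), with 50.2 and 27.5 CPM in GFP-HI and 15.5 and 8.22 CPM in GFP-NEG. SP7, the osteoblast factor osterix, had 0 counts in both GFP-HI libraries and 9 and 37 counts in GFP-NEG (adjusted p = 0.00015). Tendon and perichondrium genes, which mark the fibrous layer around cartilage among other tissues, rose in 6 and fell in 2 of 14 tested. These were 42.9% and 14.3%, beside the same 8.35% and 27.6%. ASPN, a small leucine-rich proteoglycan, was at 486 and 882 CPM in GFP-HI and at 67.1 and 21.6 CPM in GFP-NEG (log2 fold change 3.95, SE 0.78, adjusted p = 1.1e-05), and FGFR1 (2.81, adjusted p = 1.4e-05), TNC (2.80, adjusted p = 0.0095) and POSTN (2.64, adjusted p = 0.00087) rose with it. MKX, a tendon homeobox factor, and GDF6, a joint growth factor, had 0 counts in both GFP-HI libraries, against 8 and 10 counts and 6 and 11 counts in GFP-NEG (adjusted p = 0.00041 and 0.00049). Fibroblast markers rose beside these genes, as given above, and their part was not tested. Of the 8 tendon calls, 1 was kept without GFP-NEG replicate 2, then 2 without GFP-HI replicate 2, 3 without GFP-HI replicate 1 and 6 without GFP-NEG replicate 1. Without GFP-NEG replicate 2 the call of PTH1R was lost and SP7 did not pass the filter, and without GFP-HI replicate 1 PTH1R was lost. MKX and GDF6 did not pass the filter without either GFP-NEG library.

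Over all 121 tested genes related to the cartilage matrix, each counted once, 31 rose (25.6%, beside 8.35% of all tested genes) and 30 fell (24.8%, beside 27.6%). Their median log2 fold change was 0.13. The fall of COL2A1, COL9A1, COL9A3, COL11A1 and COL11A2 thus stood beside a mixed result in the wider lists. The authors' deposited table of the comparison gave log2 fold changes of -4.54 for MATN3, -4.47 for MATN1, -3.74 for COMP, -3.69 for CNMD, -3.15 for ACAN, -2.89 for CHAD, -1.96 for SOX9 and 0.01 for HAPLN1. EPYC was not listed in the authors' deposited table.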

How the data were processed

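RNA of sorted pig lung cells was sequenced from Nextera XT libraries, and the authors deposited whole-number counts per gene for each of 4 libraries. The submitters' processing notes name featureCounts, Subread 1.5.2 and DESeq2 1.37.6. The aligner and strand setting are not given in the sources used here, which leaves overlapping genes and near-identical copies uncertain. No label or header names a genome build. The name of the comparison table ends in digits that may be those of an assembly and an annotation, and no coordinates were used. A table of the comparison was deposited by the authors as well, from which log2 fold changes were copied. The deposited p-values were not used, and 4 columns of per-sample values in it were not used.

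The members and the gene lists were chosen with earlier results of these data known. Counts of GFP-HI (n = 2) and GFP-NEG (n = 2) were tested with edgeR 4.0.16 (R 4.3.3, limma 3.58.1), by the quasi-likelihood F test with TMM scaling, filterByExpr (19682 genes kept, 99.84% of counts) and group as the only term. Adjustment was by Benjamini-Hochberg over all tested genes, with 0.05 as the threshold. The SE was taken as the log2 fold change over the root of its F value. The common dispersion was 0.239 and the prior degrees of freedom were infinite, which gives the scatter of a single gene little weight. CPM used the TMM-scaled library size, and differences within replicates used log2(CPM + 0.5). Folds were given where both libraries held more than 3 counts.

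Named genes were all 9 members and all paralogs. From each related list up to 4 called genes per direction were eligible by the size of their fold change, with every gene of lists of up to 8, and for each member the 3 nearest profiles. COL9A2 was not analysed here. Ensembl identifiers were matched to symbols for 834 genes. The titles give each library a biological replicate number, and differences within a replicate follow it. No label says that equal numbers share an animal. Headings of the deposited table name pigs by number, but 2 of these headings do not match the library that the values under them come from, so the pairing was not taken as given and no block was used in the test. Alternatives were RLE, upper-quartile and library-size scaling, other filters, GFP-HI thinned to GFP-NEG depth, DESeq2 1.42.0, the replicate block and each library left out. The test was run on simulated counts of 21046 genes: of genes changed by a log2 of 3, 22.1% were recovered, and of those changed by 2, 1.22%, with 0% of 18 calls false. Only 200 genes were set to change, all at the common dispersion, whereas 36% of tested genes were called in the data. These shares therefore do not carry over to the contrast.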

Additional observations from a re-analysis of the deposited data

How the results depend on the processing

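The direction of SOX9, ACAN, MATN1, MATN3, COMP, CHAD and CNMD was kept in all 13 alternatives. Leaving out a library could hardly change it, as given above, and nothing is read from it. HAPLN1, at 0.01, changed sign with RLE scaling (-0.02), upper-quartile scaling (-0.21), library size alone (-0.30), the stricter filter (-0.02), thinned GFP-HI libraries (-0.10), without GFP-HI replicate 2 (-0.35) and without GFP-NEG replicate 2 (-0.86). With each library left out in turn it lay between -0.86 and 2.21. The genes' median of -3.42 lay between -4.13 and -1.51 when a library was left out, the latter without GFP-NEG replicate 1. Deviations of same-numbered libraries from their group means had a correlation of 0.18 across 19682 genes, which are not independent replicates. With 1 such comparison, this value cannot decide whether these libraries share an animal. With the replicate block the median was -3.04, HAPLN1 was 0.62 and 31 related genes rose and 26 fell; over all genes 1707 rose and 4793 fell with the block, beside 1643 and 5433. Of the related genes, the block changed the calls of HAPLN3, BMPR1B, PRELP and SCRG1. DESeq2 with the replicate block called 3279 genes lower over all genes and 17 related genes lower. Genes called higher numbered 888 with library size alone and 1083 with upper-quartile scaling, which moved the median of all genes from -0.25 to -0.68 and -0.58. That median was -1.21 with no filter, -1.30 with DESeq2 and -1.31 with DESeq2 and the block, fits that take in more low genes, while the median of the 8 genes was -3.38, -3.42 and -3.05. With a library left out, 216 to 1635 genes rose and 1575 to 4999 fell, and of related genes 7 to 37 rose and 12 to 22 fell; the median of all genes lay between -0.59 and 0.03, turning above 0 without GFP-NEG replicate 2. Smaller groups entered these fits, and no other cause was tested. The count of 8 genes lower in both replicates was 8 under the 3 scalings and 7 after thinning, and it was not computed for the other alternatives. With a pseudocount of 0.1, EPYC differed by -3.75 in replicate 1. Depth limits EPYC, UCMA, BCAN, SP7, MKX and GDF6. Calls can be missed, but the share recovered in simulated counts, where fewer genes changed, does not measure how many.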
